A study of Rattus norvegicus with 8 samples.

Results

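The RNA of 32 rat genes with symbols of lipid synthesis and phospholipid signalling families was compared between retinal ganglion cells (RGCs) at embryonic day 21 (E21) and at postnatal day 11 (P11). The genes were taken by symbol pattern (acyltransferases, lipins, phospholipases, CDP-diacylglycerol synthases, sphingomyelinases, ceramide synthases, hydroxysteroid 17-beta dehydrogenases, ABCA transporters, apolipoproteins and similar families) from 1998 gene IDs that could be paired with a symbol, out of 32623 IDs counted. They include 31 lipid genes and Gpatch2, which encodes a G-patch protein and matched the pattern by its letters alone. Lipid genes with other IDs were not analysed here.

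RGCs are the neurons whose axons form the optic nerve. Those of E21 embryos and P11 pups of Sprague Dawley rats were isolated by immunopanning, in which dissociated retina was first depleted of macrophages and RGCs were then captured by anti-Thy1 antibody. Each stage had 4 libraries of ribosomal RNA-depleted total RNA from an independent litter each. No treatment or transgene was used, and the stages differ in age alone by their labels.

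Membrane growth needs a supply of glycerophospholipids, sphingolipids and sterols, and a growing axon adds membrane along its length and at its tip. Phosphatidic acid is the branch point of glycerolipid synthesis. Acyltransferases make it, lipins turn it into diacylglycerol, from which phosphatidylcholine is built, and CDP-diacylglycerol synthases turn it into the precursor of phosphatidylinositol. Phospholipases then cut membrane lipids into messengers such as inositol trisphosphate, arachidonic acid and lysophosphatidic acid.

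The libraries held 13899299 to 20116017 reads counted on genes. Reads that aligned to more than 1 place were set aside by the counting and made up 37.4 to 42.2% of records at E21 and 31.7 to 36.3% at P11. Markers of other cells moved with stage. Levels are in CPM, the count of a gene scaled to a common library total. The summed level of 6 vascular and mural markers was 3.85 to 5.92 CPM at E21 and 289 to 567 CPM at P11, with 5 of 6 higher at P11. The sum of 7 photoreceptor markers was 27.1 to 30.6 CPM and 68.6 to 84.7 CPM, with 4 higher and none lower past both thresholds. The other lists with a higher sum at P11 were mixed. The sum of 3 fibroblast markers was 13.2 to 17.0 CPM and 142 to 264 CPM, where Col1a1 and Col3a1 were higher at P11 and Pdgfra, most of the E21 sum, was lower (13.3 and 5.55 CPM). The sum of 3 amacrine markers was 6.36 to 7.40 CPM and 14.5 to 22.2 CPM, where Gad1 and Tac3 were higher and Prox1, most of the E21 sum, was lower (5.97 and 2.63 CPM). The sum of 4 Müller glia and astrocyte markers was 0.892 to 1.24 CPM and 11.6 to 18.8 CPM. Of these Hes1 (13.4 CPM at P11) and S100b (1.64 CPM) were higher, Sox9 averaged 0.623 and 0.354 CPM with too few counts for the test, and Gfap was at or under 3 counts in every library. The sums of 3 bipolar markers (6.18 to 7.82 CPM and 3.62 to 4.25 CPM) and 2 oligodendrocyte markers (25.8 to 32.1 CPM and 13.8 to 15.1 CPM) were lower at P11, and 4 microglia and leukocyte markers summed to at most 1.21 CPM in any library. The neuronal markers Gap43, Rbfox3 and Uchl1 summed to 3360 to 3500 CPM at E21 and 2050 to 2180 CPM at P11. Of these only Gap43 passed both thresholds, lower at P11. Uchl1 was lower by the p threshold alone (log2 fold change -0.21, SE 0.04, edgeR adjusted p = 2.02e-04). The part of other cells in the results on lipid genes was not tested, and in bulk RNA fewer cells of a type and less RNA per cell cannot be told apart.

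Of the 32 genes, 24 had enough counts for edgeR's quasi-likelihood test, and 5 passed both thresholds. These were an adjusted p under 0.01 and a change of more than 1 on the log2 scale, counted as P11 over E21. Cds1, Pld5, Plcd3 and Agpat3 were higher at P11 and Hsd17b7 was lower. CPM were scaled by the trimmed mean of M-values (TMM), and means are given ± SD over 4 libraries. The 4 higher genes compare with 16.5% of all 14043 genes tested, and the 1 lower gene with 8.16%. Among the 1779 tested genes with a symbol these shares were 16.1% and 7.76%. At any fold change 16 of the 24 genes had an adjusted p below 0.01, 8 in each direction, against 68.4% of all genes, and the libraries of the stages did not overlap for 20 of the 24, against 71.3%. The 24 genes had a median log2 value of -0.12, beside -0.0042 over all genes tested, and the median size of the change was 0.54, beside 0.49. None of these shares and medians sets the lipid genes apart from the background. The plot of log2 fold changes shows both signs within most lipid roles.

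**Figure D1:**
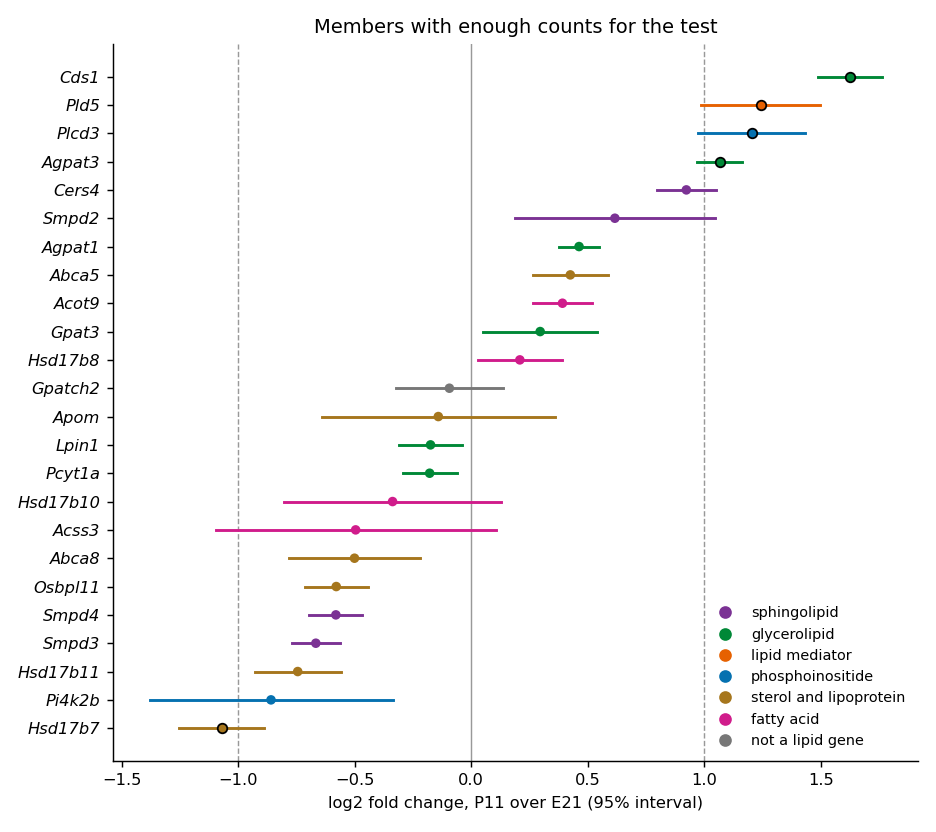
Log2 fold change (P11 over E21) of the 24 genes tested, sorted by value, with 95% intervals as lines and colours for the role of each gene. Points with a black edge mark the 5 genes past both thresholds, and dashed lines mark log2 fold changes of -1 and 1.

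The 5 genes past both thresholds are shown here with the 150 bases directly before their RefSeq start (build GRCr8), read 5′ to 3′ on the gene's strand, because this is the stretch that would hold promoter-proximal motifs. Capitals mark TGACG (the half-site of the cyclic AMP response element, CRE), CCAAT and GGGCGG (the GC box) on either strand, so that GC boxes on the other strand read CCGCCC and CCAAT boxes ATTGG.
Cds1, chr14:8187244-8187393, minus strand: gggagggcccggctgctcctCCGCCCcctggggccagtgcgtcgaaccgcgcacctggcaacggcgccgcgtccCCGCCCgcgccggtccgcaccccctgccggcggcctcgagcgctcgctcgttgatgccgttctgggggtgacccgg
Pld5, chr13:90765073-90765222, minus strand: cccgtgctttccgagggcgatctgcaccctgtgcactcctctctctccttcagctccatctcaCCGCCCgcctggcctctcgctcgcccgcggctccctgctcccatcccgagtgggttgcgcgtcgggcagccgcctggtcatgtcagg
Plcd3, chr10:88548070-88548219, minus strand: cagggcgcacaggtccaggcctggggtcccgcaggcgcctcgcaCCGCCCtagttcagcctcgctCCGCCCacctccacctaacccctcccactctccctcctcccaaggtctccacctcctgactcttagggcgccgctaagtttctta
Agpat3, chr20:10384031-10384180, plus strand: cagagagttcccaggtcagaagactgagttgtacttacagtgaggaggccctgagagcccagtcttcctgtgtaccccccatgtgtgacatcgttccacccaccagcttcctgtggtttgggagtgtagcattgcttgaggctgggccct
Hsd17b7, chr13:84722755-84722904, minus strand: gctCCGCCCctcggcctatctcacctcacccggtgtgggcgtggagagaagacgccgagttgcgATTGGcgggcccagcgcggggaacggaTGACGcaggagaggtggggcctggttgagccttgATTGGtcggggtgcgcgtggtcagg

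Hsd17b7, the 1 gene of the 5 that was lower at P11, held 1 CRE half-site, 2 CCAAT boxes and 1 GC box in this stretch. Cds1 and Plcd3 held 2 GC boxes each, Pld5 held 1, and Agpat3 held none of the 3 motifs. The GC content was 79.3% for Cds1, 69.3% for Pld5, 68.7% for Hsd17b7, 66.7% for Plcd3 and 56.0% for Agpat3, beside a median of 52.7% over all RefSeq promoters of this length. The set of all promoters, here and below, was not limited to genes expressed in these cells. RefSeq gave a promoter for 27 of the 32 genes. In the 250 bases before the start, the half-site TGACG occurred in 6 of the 27 (22.2%), namely Pcyt1a, Smpd4, Hsd17b7, Hsd17b13, Smpd2 and Acot9, beside 18.2% of 33469 promoters. The full CRE TGACGTCA, which contains the half-site, occurred in 0 of the 27 and in 1.59% of all promoters. CCAAT occurred in 9 of 27 (33.3%) and 34.0% of all, and GGGCGG in 14 of 27 (51.9%) and 30.5% of all. A match is a description of the letters and not a binding site.

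Among the genes of glycerolipid synthesis, 2 of 6 rose past both thresholds and none fell past them. This count is too small to set against the 16.5% and 8.16% of all genes. Cds1 (ENSRNOG00000002142) makes CDP-diacylglycerol from phosphatidic acid. Its level was 14.0, 13.1, 12.4 and 13.5 CPM in E21 replicates 1 to 4 and 41.5, 41.3, 41.9 and 38.2 CPM in P11 replicates 1 to 4. Every P11 library was above every E21 library by a wide gap. The means were 13.2 ± 0.686 and 40.7 ± 1.68 CPM, with a log2 fold change of 1.62 (SE 0.07, edgeR adjusted p = 7.83e-13). It was the largest change among the 24 genes, and the 95% interval of 1.49 to 1.76 lay wholly above 1.

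Agpat3 (ENSRNOG00000001205), an acyltransferase that turns lysophosphatidic acid into phosphatidic acid and also acylates other lysophospholipids, was counted at 126, 124, 115 and 113 CPM at E21 and 252, 260, 250 and 238 CPM at P11. The stages were far apart, with means of 119 ± 6.45 and 250 ± 9.15 CPM. The log2 fold change was 1.07 (SE 0.05, edgeR adjusted p = 1.68e-12). Its 95% interval began at 0.97, just under the threshold of 1. Agpat1, a second enzyme of the same step, was at 274, 286, 286 and 260 CPM at E21 and 377, 395, 381 and 371 CPM at P11. Its libraries did not overlap either, but the log2 fold change of 0.46 (SE 0.04, edgeR adjusted p = 2.02e-08) was under the fold threshold. Gpat3, which adds the first acyl chain to glycerol 3-phosphate, had overlapping libraries, from 6.44 to 8.17 CPM at E21 and from 8.02 to 9.77 CPM at P11, and its log2 fold change was 0.30 (SE 0.12, edgeR adjusted p = 0.0292).

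Lpin1 and Pcyt1a, on the route through diacylglycerol to phosphatidylcholine, had values slightly lower at P11. Lpin1, a phosphatidic acid phosphatase, averaged 32.9 ± 2.26 and 29.1 ± 0.974 CPM at E21 and P11. Every P11 library was under every E21 library by a small margin, and the log2 fold change was -0.17 (SE 0.06, edgeR adjusted p = 0.0187). Pcyt1a, the rate-limiting enzyme of phosphatidylcholine synthesis by the CDP-choline route, was at 59.4, 52.7, 54.2 and 53.4 CPM at E21 and 49.1, 50.8, 48.7 and 45.5 CPM at P11. The stages did not overlap but lay close together, and the log2 fold change was -0.18 (SE 0.05, edgeR adjusted p = 0.00707). That p passed its threshold under TMM but not under DESeq2-style size factors (0.0131), library size alone (0.0446) or DESeq2 (0.0192).

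Ratios of counts within a library need no scaling between libraries. The pairs were chosen after the values were seen, and the ratios are a description without a test. Reads of Cds1 per read of Lpin1 were 0.397, 0.432, 0.388 and 0.395 at E21 and 1.47, 1.39, 1.40 and 1.36 at P11. The mean ratio was 0.403 ± 0.0198 and 1.40 ± 0.0465, which is 3.48 times higher at P11. Per read of Pcyt1a, Cds1 went from 0.241 ± 0.0115 to 0.840 ± 0.0195, also 3.48 times higher. Agpat3 per Agpat1 was 0.432 ± 0.0236 and 0.656 ± 0.0113, 1.52 times higher at P11. Relative to Lpin1 and to Pcyt1a, reads of Cds1 were more numerous in every P11 library than in any E21 library.

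**Figure D2:**
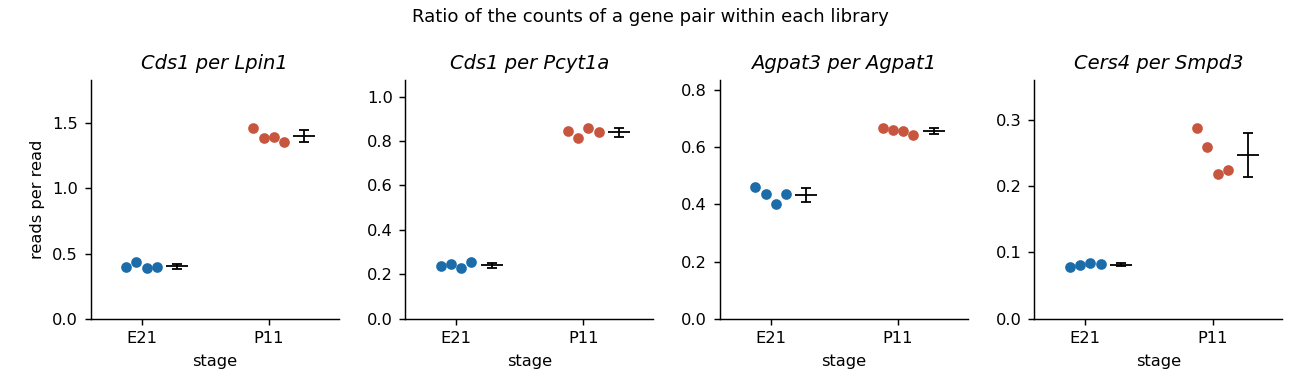
Reads of the first gene per read of the second in each library, for 4 pairs, with E21 in blue, P11 in red and the mean ± SD (n = 4) in black beside the points. In each pair the 4 P11 ratios lie above the 4 E21 ratios.

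The phospholipases and phosphoinositide genes followed no single direction. Pld5 (ENSRNOG00000003997), a phospholipase D family member thought to lack catalytic activity, was at 7.10, 7.30, 5.40 and 7.02 CPM at E21 and 14.2, 16.2, 18.7 and 14.2 CPM at P11. The lowest P11 library was above the highest E21 library. Means were 6.70 ± 0.875 and 15.8 ± 2.13 CPM, a log2 fold change of 1.24 (SE 0.12, edgeR adjusted p = 6.38e-08). Plcd3 (ENSRNOG00000003033), a phospholipase C that cuts phosphatidylinositol bisphosphate into inositol trisphosphate and diacylglycerol, was at 5.29, 5.57, 5.56 and 5.27 CPM at E21 and 10.8, 12.2, 13.9 and 13.1 CPM at P11. The E21 libraries were close together and all P11 libraries lay higher. Means were 5.42 ± 0.168 and 12.5 ± 1.36 CPM, a log2 fold change of 1.20 (SE 0.11, edgeR adjusted p = 2.74e-08). The 95% intervals of Pld5 and Plcd3 began at 0.99 and 0.97, under the threshold of 1, and neither gene was called when edgeR's glmTreat tested against that threshold (adjusted p = 0.044 and 0.0585).

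Pi4k2b, a type II phosphatidylinositol 4-kinase, had the opposite sign. It was at 3.62, 2.84, 2.94 and 4.53 CPM at E21 and 1.28, 1.95, 1.40 and 2.84 CPM at P11. P11 replicate 4 was level with the lowest E21 library. The log2 fold change of -0.86 (SE 0.25, edgeR adjusted p = 0.0046) was under the fold threshold, and without P11 replicate 4 it was -1.14 and passed both. The edgeR adjusted p missed its threshold without E21 replicate 1 or 4 or P11 replicate 1, 2 or 3. In those fits it was 0.0123 to 0.0196.

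**Figure D3:**
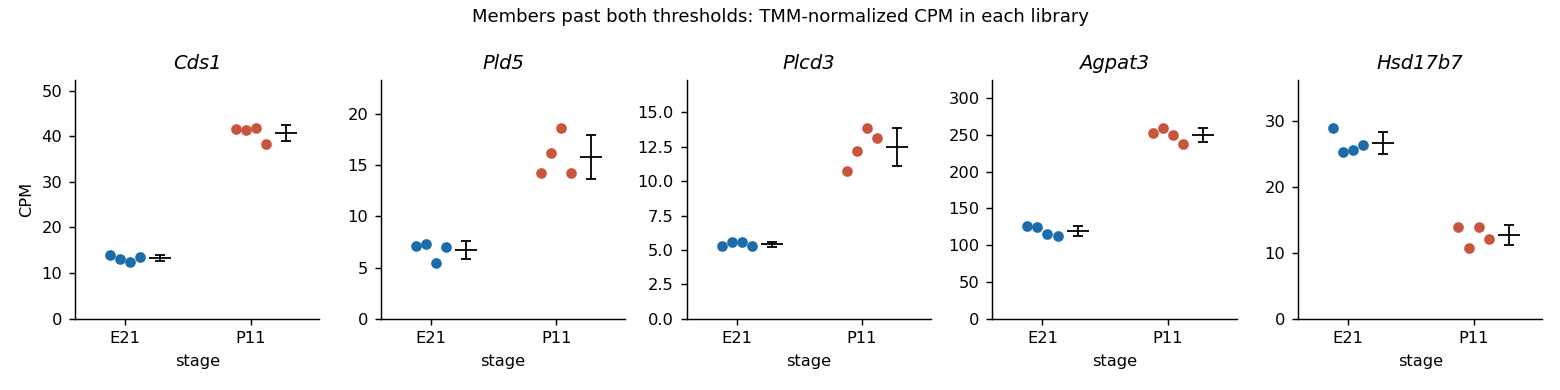
TMM-scaled CPM of the 5 genes past both thresholds in each library, with E21 in blue, P11 in red and the mean ± SD (n = 4) in black, each panel on its own axis from 0. In none of the 5 do the stages overlap.

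Enpp2, Pla2g4a and Pla2g1b, all secreted or cytosolic enzymes of lipid mediators, were close to the limit of counting. Enpp2 encodes autotaxin, the secreted enzyme that makes lysophosphatidic acid. It had 2, 1, 1 and 1 reads in E21 replicates 1 to 4 and 7, 11, 8 and 13 reads in P11 replicates 1 to 4. With the E21 libraries at or under a floor of 3 reads a library, its mean level of 0.585 CPM at P11 was at least 2.67-fold higher. Pla2g4a, the cytosolic phospholipase A2 that frees arachidonic acid, had 2, 1, 0 and 0 reads at E21 and 2, 10, 3 and 13 reads at P11. Its stages touched at 2 reads, in E21 replicate 1 and P11 replicate 1, and no fold is given. Both genes had their highest levels in P11 replicates 4 and 2, at 0.709 and 0.651 CPM for Enpp2 and 0.709 and 0.592 CPM for Pla2g4a. So did the mural cell marker Rgs5, at 208, 251, 151 and 317 CPM in P11 replicates 1 to 4. Flt1, Notch3 and Higd1b of the vascular and mural list were also highest in replicates 4 and 2. Flt4 and Erg of that list ranked otherwise, at 6.38, 7.69, 7.74 and 7.04 CPM and at 0.0672, 0.296, 0.381 and 0.545 CPM. P11 replicates 4 and 2 also had the most counted reads at P11, 17756824 and 16575320. Sptlc3, another gene of few reads, had its most reads in P11 replicate 1. The part of mural cells in the reads of these genes was not tested. Pla2g1b, the secreted pancreatic phospholipase A2, had 1 to 5 reads at E21 and 0 to 4 at P11, which overlapped.

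In all, 8 of the 32 genes had 0 to 13 reads in a library and were under the expression filter. Sptlc3, a subunit of serine palmitoyltransferase, which starts sphingolipid synthesis, had 1, 2, 1 and 0 reads at E21 and 8, 6, 2 and 5 at P11, so that these stages also touched at 2 reads. Smpdl3a, a sphingomyelinase-like phosphodiesterase, had 2 to 10 reads at E21 and 3 to 10 at P11. Hsd17b13, a lipid droplet protein, had 0 to 3 and 2 to 9 reads, and Abca8a, an ABC transporter, 1 to 3 and 1 to 10. Apoa2, an apolipoprotein of high-density lipoprotein, had 0 to 2 and 0 to 5 reads. For these 4 the stages overlapped. When the filter was left off, Enpp2 (edgeR adjusted p = 1.57e-05), Pla2g4a (2.29e-04) and Sptlc3 (0.00623) also passed both thresholds, so that 7 genes in place of 4 were higher at P11. That fit also changed the edgeR adjusted p of genes at the same fold, for Agpat3 from 1.68e-12 to 6.04e-53 and for Smpd2 from 0.0111 to 0.019. Its p-values are therefore not comparable with those of the main fit. Under DESeq2 Enpp2 (adjusted p = 7.66e-04) and Pla2g4a (0.00957) passed and Sptlc3 (0.0304) did not.

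**Figure D4:**
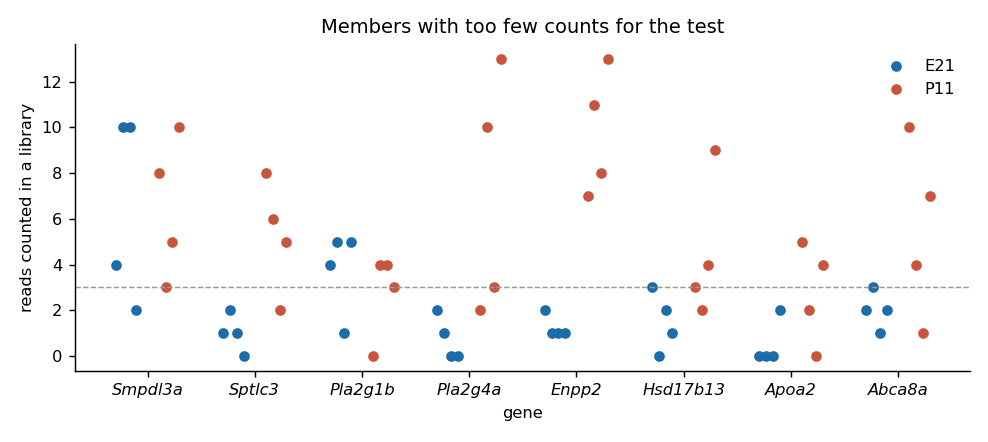
Reads counted in each library for the 8 genes under the expression filter, E21 in blue and P11 in red, with a dashed line at 3 reads. Enpp2 is the only one of the 8 with all P11 libraries above the line and all E21 libraries below it.

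None of the 4 sphingolipid genes tested passed both thresholds, too few genes to set against the 16.5% and 8.16% of all genes. An adjusted p below 0.01 was reached by 3 of the 4, with both signs, and by 68.4% of all genes. Smpd3, a neutral sphingomyelinase that makes ceramide at the plasma membrane and Golgi, was at 489, 457, 471 and 468 CPM at E21 and 279, 285, 329 and 294 CPM at P11. Every P11 library was lower, with means of 471 ± 13.3 and 297 ± 22.4 CPM. The log2 fold change was -0.67 (SE 0.05, edgeR adjusted p = 1.68e-09). Smpd4, another neutral sphingomyelinase, was at 55.7, 60.8, 59.7 and 57.3 CPM at E21 and 37.8, 37.3, 39.4 and 41.7 CPM at P11. It too was lower in every P11 library, with a log2 fold change of -0.58 (SE 0.05, edgeR adjusted p = 3.38e-08).

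Cers4, a ceramide synthase that joins a fatty acid to a sphingoid base, had the opposite sign. It was at 38.5, 37.2, 39.5 and 38.5 CPM at E21 and 80.4, 73.8, 71.8 and 65.8 CPM at P11. The log2 fold change of 0.92 (SE 0.06, edgeR adjusted p = 3.05e-10) was the one nearest under the fold threshold, with an interval of 0.80 to 1.05. Reads of Cers4 per read of Smpd3 were 0.0816 ± 0.00214 at E21 and 0.247 ± 0.0328 at P11, 3.03 times higher. Smpd2, a neutral sphingomyelinase at low level, was between 1.36 and 2.05 CPM at E21 and between 2.24 and 2.78 CPM at P11. Its log2 fold change of 0.62 (SE 0.20) had an edgeR adjusted p of 0.0111. The edgeR adjusted p was 0.00971 under DESeq2-style size factors, 0.00678 under library size alone and 0.0195 with the replicate block. DESeq2 gave an adjusted p of 0.0333. Within this list, by the p threshold alone, the hydrolases Smpd3 and Smpd4 were lower at P11 and the synthase Cers4 was higher. The hydrolase Smpd2 had a higher value at P11 that missed the p threshold in the main fit.

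Of the sterol and lipoprotein genes, 6 of 9 were tested, 1 fell past both thresholds and none rose past them. These counts are too small to set against the 16.5% of all genes that rose and the 8.16% that fell. Hsd17b7 (ENSRNOG00000002826), which reduces a 3-keto sterol in cholesterol synthesis, was at 29.0, 25.3, 25.6 and 26.4 CPM at E21 and 14.0, 10.8, 13.8 and 12.1 CPM at P11. All P11 libraries were well below all E21 libraries, with means of 26.6 ± 1.67 and 12.7 ± 1.53 CPM. The log2 fold change was -1.07 (SE 0.09, edgeR adjusted p = 5.70e-09), with an interval of -1.25 to -0.89 that included the threshold. Without P11 replicate 2 it was -0.98 and no longer passed the fold threshold. Hsd17b11, a lipid droplet protein, was at 22.8, 21.9, 25.4 and 28.2 CPM at E21 and 14.7, 15.9, 13.3 and 14.6 CPM at P11. It was lower in every P11 library, with a log2 fold change of -0.74 (SE 0.09, edgeR adjusted p = 6.89e-07).

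Osbpl11, an oxysterol-binding protein relative that carries lipids between membranes, was at 35.4, 36.9, 34.5 and 33.9 CPM at E21 and 22.6, 23.7, 22.0 and 25.7 CPM at P11. Its stages did not overlap, and the log2 fold change was -0.58 (SE 0.06, edgeR adjusted p = 3.09e-07). The ABCA transporters, which move lipids across or out of membranes, differed in sign. Abca5 was at 25.4, 22.4, 21.6 and 21.3 CPM at E21 and 29.2, 31.7, 33.2 and 27.6 CPM at P11, for a log2 fold change of 0.42 (SE 0.08, edgeR adjusted p = 7.35e-05). Abca8 was at 7.56, 7.30, 7.03 and 8.04 CPM at E21 and 4.10, 5.50, 5.52 and 5.89 CPM at P11, for a log2 fold change of -0.50 (SE 0.13, edgeR adjusted p = 0.00248). Abca8 and Abca8a are paralogs, and since reads aligned to several places were set aside, the counts of both are uncertain. Apom, a lipoprotein that carries sphingosine 1-phosphate, had overlapping libraries, from 1.31 to 2.01 CPM at E21 and from 1.07 to 1.65 CPM at P11, and its log2 fold change was -0.14 (SE 0.24, edgeR adjusted p = 0.597).

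None of the 4 genes of acyl-CoA and fatty acid metabolism passed both thresholds. With so few genes this cannot be set against the 16.5% and 8.16% of all genes. Acot9, a mitochondrial acyl-CoA thioesterase, was at 24.7, 23.3, 25.1 and 25.7 CPM at E21 and 33.6, 31.9, 32.9 and 31.0 CPM at P11. All P11 libraries were higher, and the log2 fold change was 0.39 (SE 0.06, edgeR adjusted p = 1.48e-05). Hsd17b8, of mitochondrial fatty acid synthesis, had a log2 fold change of 0.21 (SE 0.08, edgeR adjusted p = 0.0346). Hsd17b10, a mitochondrial dehydrogenase that is also a part of mitochondrial RNase P, was at 1.61 to 1.68 CPM at E21 and 1.02 to 1.58 CPM at P11, and its log2 fold change was -0.34 (SE 0.22, edgeR adjusted p = 0.174). Acss3, a mitochondrial short-chain acyl-CoA synthetase, was at 1.15 to 1.72 CPM at E21 and 0.762 to 1.58 CPM at P11, and its log2 fold change was -0.50 (SE 0.28, edgeR adjusted p = 0.122). For the last 2 the intervals of -0.80 to 0.13 and of -1.10 to 0.10 leave a range of changes that these counts could not resolve. Gpatch2, the gene that is not a lipid gene, was at 11.2 ± 1.48 and 10.5 ± 0.623 CPM with overlapping libraries, a log2 fold change of -0.09 (SE 0.11, edgeR adjusted p = 0.439).

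A further 58 lipid genes with a symbol, listed by function, gave the context of each pathway, and 53 of them were tested. Of these 7 were higher and 3 lower at P11 past both thresholds, beside 16.5% and 8.16% of all genes. Their median was 0.25 on the log2 scale, beside -0.0042 over all genes. Plaat1 was near 0 at E21, and its fitted value and its lower bound both lay above that median. Setting it to the lower bound could therefore not change the median. In the sphingolipid list of 7, Psap, which encodes the precursor of saposins that activate lysosomal sphingolipid hydrolases, was higher (392 ± 23.3 and 1058 ± 58.4 CPM, log2 fold change 1.43, SE 0.05, edgeR adjusted p = 1.75e-13). In the same list Sptssa, a small subunit of serine palmitoyltransferase, was lower (39.2 ± 2.39 and 18.4 ± 0.800 CPM, log2 fold change -1.09, SE 0.06, edgeR adjusted p = 1.13e-10). The other 5 were not called.

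In the glycerolipid list, with 8 of 9 tested, Dgkg, a diacylglycerol kinase that makes phosphatidic acid from diacylglycerol, was higher (2.56 ± 0.291 and 15.4 ± 1.21 CPM, log2 fold change 2.60, SE 0.12, edgeR adjusted p = 4.78e-12). Plpp2, a lipid phosphate phosphatase that runs the reverse step, was lower (2.51 ± 0.463 and 1.14 ± 0.179 CPM, log2 fold change -1.13, SE 0.22, edgeR adjusted p = 2.19e-04). In the phosphoinositide list, with 12 of 13 tested, Itpr2, an inositol trisphosphate receptor, was the only gene called (0.281 ± 0.191 and 3.81 ± 1.20 CPM, log2 fold change 3.73, SE 0.35, edgeR adjusted p = 5.90e-08). Itpr2 had 8, 5, 5 and 1 reads in the E21 libraries and 54, 52, 47 and 102 in the P11 libraries. The size of its change therefore rests on few E21 reads.

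In the lipid mediator list, with 8 of 10 tested, 2 genes were higher and none lower. This count is too small to set against the 16.5% and 8.16% of all genes. Plaat1, a phospholipase and acyltransferase, had at most 3 reads in any E21 library and was at least 6.32-fold higher at P11, at 1.38 ± 0.303 CPM (edgeR adjusted p = 6.52e-07). Ptgs2, the inducible cyclooxygenase, was at 0.247 ± 0.0812 and 1.31 ± 0.391 CPM, with a log2 fold change of 2.44 (SE 0.36, edgeR adjusted p = 1.09e-05). It too was near the floor, with 3 to 5 reads in the E21 libraries. In the sterol and lipoprotein list, 6 of the 7 genes tested and reported here had an edgeR adjusted p under 0.01, 4 with values higher and 2 with values lower at P11, all under the fold threshold, beside 68.4% of all genes at any fold. In the fatty acid list all 11 were tested. Acbd4, an acyl-CoA binding protein, was higher (5.96 ± 0.670 and 23.2 ± 2.86 CPM, log2 fold change 1.97, SE 0.11, edgeR adjusted p = 4.80e-11), and Acads, the short-chain acyl-CoA dehydrogenase, was lower (28.8 ± 1.85 and 11 ± 1.52 CPM, log2 fold change -1.37, SE 0.09, edgeR adjusted p = 4.00e-10). Bdh1, a ketone body dehydrogenase, was also higher, with a log2 fold change of 1.14 (SE 0.05, edgeR adjusted p = 7.02e-12). Bdh1 and Ptgs2 are outside the rule for naming genes and were added after their values were seen.

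**Figure D5:**
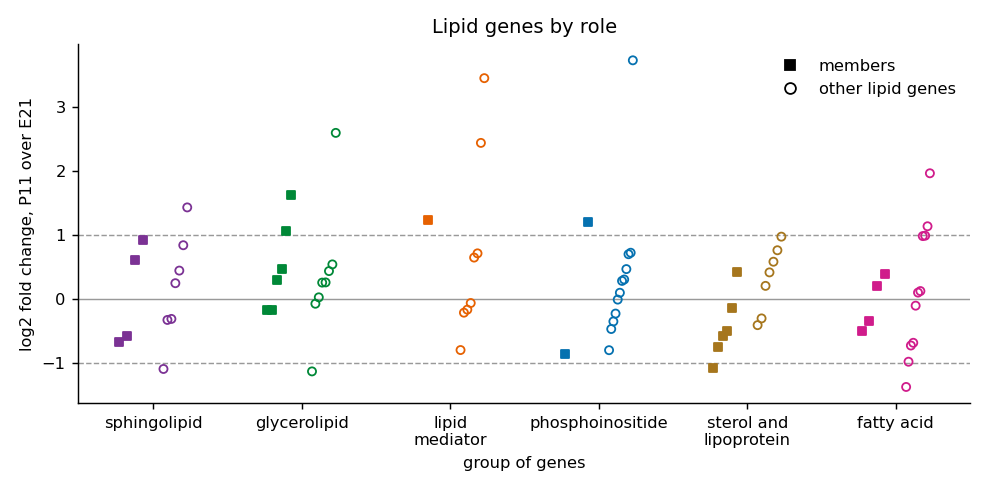
Log2 fold change (P11 over E21) of each gene tested, by role, with the 23 lipid genes of the symbol pattern as filled squares, the 53 other lipid genes as open circles and dashed lines at -1 and 1. Plaat1, with at most 3 reads in any E21 library, is drawn at a fitted value that depends on the prior count, and both directions occur in every role.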

How the data were processed

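RNA of immunopanned rat RGCs was sequenced from 4 libraries at E21 and 4 at P11. The authors used Cutadapt 1.16 and PRINSEQ for trimming and quality filtering, STAR 2.5.3a for alignment to Rnor_6.0 and HTSeq 0.6.1 for counting, and deposited raw counts per gene ID. The strand setting and annotation release are not given in the sources used here, so overlapping genes may share reads. HTSeq's summary lines were left out of totals. Symbols came from 1998 of 15836 rows of the study's gene table, whose IDs take 12.5% of counted reads.

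Counts were filtered with filterByExpr (14043 of 32623 genes kept), scaled by TMM and tested with edgeR 4.0.16 (quasi-likelihood, robust, two-sided) in R 4.3.3, with Benjamini-Hochberg adjustment over all genes tested. Calls needed an adjusted p under 0.01 together with a change of more than 1 on the log2 scale. The size of a change over the root of its F value gave the standard error. The floor was 3 counts, or at most 0.219 CPM at E21, and covers counting error only. The tests were tested on simulated data. Alternatives were DESeq2 1.42.0, glmTreat, other scalings, no filter, the replicate block and each library left out. Every gene matching the pattern is named, with all library values for those with an adjusted p below 0.01, and of the other lipid lists the called gene with the largest change in each direction. The result of 1 gene of those lists is not reported here, and counts over the lists leave it out. The genes and lists were chosen with earlier results of these data known. Promoters came from RefSeq (GRCr8), matched by symbol.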

Additional observations from a re-analysis of the deposited data

Results flagged for a closer look

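In 4 of 58 groups of 4 libraries, 1 library lay far from the other 3 by Dixon's gap test, which chance alone would give in about 1 of 20 groups. Cds1 was at 38.2 CPM in P11 replicate 4, below the 41.3 to 41.9 CPM of the other P11 libraries and still far above E21. Pld5 was at 5.40 CPM in E21 replicate 3, below 7.02 to 7.30 CPM in the other E21 libraries. Acss3, a gene of few reads, was at 1.58 CPM in P11 replicate 4, above 0.762 to 0.806 CPM in the others. Gpatch2 was at 9.02 CPM in E21 replicate 3, below 11.7 to 12.1 CPM in the others.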

How the results depend on the processing

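Of 336 values of the 24 genes under the alternatives, 330 kept their direction and their call by both thresholds together. The others were 5 that no longer passed and 1 that newly passed, and 0 changed sign. Genes not called could still cross the p threshold alone. Under DESeq2-style size factors the edgeR adjusted p of Pcyt1a went from 0.00707 to 0.0131 and that of Smpd2 from 0.0111 to 0.00971. Under glmTreat, which tests against a log2 fold change of 1 and not against 0, 1 lipid gene was higher at P11 (Cds1) and 0 were lower, and with the other lipid lists 1 gene was lower and over all genes 668 were lower. Without the expression filter 7 genes were higher, as 8 more genes were tested. Leaving out 1 library gave 0 to 2 genes lower at P11, 0 without P11 replicate 2 (Hsd17b7 at -0.98) and 2 without P11 replicate 4 (Pi4k2b at -1.14). The replicate numbers were not used as pairs in the main fit, as the litters were independent. Correlations of same-numbered libraries were -0.0207, 0.078, -0.0268 and 0.0715, and those of differently numbered libraries were -0.0931 to 0.0661. A batch shared by number was not tested. With the replicate block 2316 genes were higher and 1147 lower, and 4 and 1 of the 24. Counts below about 3 reads a library limit what can be said of the 8 genes under the filter.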
